A study of Homo sapiens with 6 samples.

Results

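The genes of the cytosolic translation factors were examined in xenograft tumours of PC-3 cells, a human prostate cancer cell line, with and without knockdown of VCAN, the gene of the matrix proteoglycan versican. The set holds 44 genes, chosen by name from 67026 counted genes. It covers the initiation factors eIF1 to eIF6, with the subunits of eIF2, eIF2B, eIF3 and the eIF4 group, the elongation factors eEF1 and eEF2, and the release factors ETF1 and GSPT1. Of the 44 genes, 40 had enough counts to be tested and 4 were listed at 0 counts in all 6 libraries.

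RNA was sequenced from 3 control tumours, whose cells had a short hairpin RNA against GFP (shGFP), and from 3 tumours whose cells had one against VCAN (shVCAN). Cells of both groups had been transduced with lentivirus and selected with puromycin, and were injected under the skin of male NSG mice of 4 to 5 weeks (strain NOD.Cg-Prkdcscid Il2rgtm1Wjl/SzJ), which lack T, B and NK cells but keep other host cells. The labels do not give the number of hairpins per group or say whether the lines are clones or pools, and the numbered tumours are taken as 1 replicate each. P-values set the group difference against the spread between these tumours, and cannot cover differences between hairpins or cell lines. A tumour holds mouse cells as well as human ones. A further group that the protocol mentions was not analysed here.

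Libraries held 11253058 to 13327617 counts. VCAN itself had 133, 104 and 121 counts in the shGFP tumours but only 69, 39 and 44 in the shVCAN tumours, which gave a log2 fold change of -1.53 (adjusted p = 4.59e-07 by the quasi-likelihood test of edgeR; SE 0.207). The 13 messenger RNAs of the mitochondrial genome took 13.3% to 16.2% of the counts in shGFP tumours and 6.39% to 7.63% in shVCAN tumours. The PC-3 markers KRT8, KRT18, EPCAM and VIM summed to 2543.8 to 2731 CPM (read counts scaled to library size) in shGFP and 2359.7 to 2417.9 CPM in shVCAN tumours, and KLK3, an androgen target, was listed at 0. VIM carried most of that sum and did not pass the test, at -0.04, while KRT18 (-0.54), EPCAM (-0.29) and KRT8 (-0.19) fell. Markers of fibroblasts and pericytes (6 genes) summed to 736.1 to 837.1 CPM in shGFP and 305.3 to 408.2 CPM in shVCAN tumours. COL1A1 carried most of that sum, with means of 618.8 CPM in shGFP and 300.5 CPM in shVCAN tumours. PDGFRB, DCN and LUM had means of at most 1.34 CPM in either group. Of the 4 tested markers, 3 fell. Endothelial markers summed to 40.9 to 44.2 CPM and 25.5 to 28.3 CPM, muscle markers to 190.4 to 330.6 CPM and 141.1 to 212.9 CPM, and macrophage markers to at most 2.51 CPM, with CD163 and AIF1 at 0. The part of these shifts in the results below was not tested. In bulk tumours, fewer cells of a type and less RNA per cell cannot be told apart. The marker rows are of human genes, and whether their counts came from human or mouse cells is not known.

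Translation of most messenger RNAs starts when the eIF4 group unwinds the capped 5′ end and recruits the small ribosomal subunit. That subunit arrives loaded with eIF3, eIF1, eIF1A and a complex of eIF2, GTP and initiator tRNA, and scans to the start codon. eIF5 and eIF5B then release the factors and join the large subunit, eEF1A delivers each tRNA, eEF2 moves the ribosome along, and the release factors end the chain at the stop codon. Many messenger RNAs of this machinery begin with a terminal oligopyrimidine (TOP) tract, a C followed by a run of C and T letters at the very start of the transcript. The TOP tract is known for placing translation of these RNAs under control of the mTOR kinase and of LARP1, a protein that binds it.

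Start sites could be matched for 36 of the 44 genes in RefSeq (GRCh38.p14). A TOP start, written here as a C at the first base followed by at least 4 further C or T letters on the transcribed strand, was found at 10 of the 51 start entries of these genes (19.6%), against 1429 of 35116 entries over all genes (4.07%). The 10 entries belong to 10 genes, of which 3 rose, 2 fell and 3 did not pass the test in shVCAN tumours, while EEF1B2 and EIF3K were listed at 0. No start was matched for EIF2S2, EIF3A, EIF3E, EIF3G, EIF3H, EIF3L, EIF4EBP1 and EEF1D, so these are not in that split. Of them, EIF3E, EIF3H and EEF1D are listed for a TOP tract in earlier descriptions. EIF3E (log2 fold change 0.60) and EIF3H (0.22) rose, and EEF1D (-0.22) did not pass the test. The windows of the 8 counted genes are shown because their starts look alike while their levels moved in both directions. Each runs from 25 bases before the start to 15 bases from it, 5′ to 3′, with the run of C and T letters from the first transcribed base in capitals.
EEF1A1 (chr6:73521018-73521057, minus strand): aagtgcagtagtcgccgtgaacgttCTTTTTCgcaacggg
EIF3F (chr11:7987312-7987351, plus strand): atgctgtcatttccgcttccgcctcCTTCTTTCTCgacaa
EIF3M (chr11:32583806-32583845, plus strand): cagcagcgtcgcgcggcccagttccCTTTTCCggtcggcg
EEF2 (chr19:3985449-3985488, minus strand): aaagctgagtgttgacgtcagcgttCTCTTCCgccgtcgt
EIF4B (chr12:53006431-53006470, plus strand): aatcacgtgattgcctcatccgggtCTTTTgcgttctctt
EIF4A2 (chr3:186783552-186783591, plus strand): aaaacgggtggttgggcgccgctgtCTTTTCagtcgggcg
EIF3D (chr22:36529152-36529191, minus strand): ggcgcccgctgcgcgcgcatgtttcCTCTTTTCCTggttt
EIF2S3 (chrX:24054931-24054970, plus strand): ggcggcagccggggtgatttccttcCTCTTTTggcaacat
The first 3 genes rose, EEF2 and EIF4B fell, and the last 3 did not pass the test. The match describes annotated starts only, and the starts used in these tumours were not measured.

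Over the whole set, 12 genes rose in shVCAN tumours, 10 fell and 18 did not pass the test (edgeR, adjusted p under 0.05 over all 16254 tested genes). The share called was 55.0%, beside 40.3% of all tested genes. By direction, 19.2% of all tested genes rose and 21.1% fell. These shares also stand beside the counts per complex given below, which cover few genes each. The levels of the 3 shVCAN tumours lay wholly above or below those of the 3 shGFP tumours for 26 of the 40 genes, beside 48.7% of all tested genes. Abundant genes were called more often: 1292 of the 1877 genes with a mean of at least 100 CPM were called (68.8%), and 19 of the 29 set members at that level (65.5%), a division of the genes chosen after the values were seen. At that abundance the share called in the set was not above that of other genes.

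The changes were small and ran both ways. The median log2 fold change was -0.0016 over the 40 genes and 0.0014 over all tested genes, and the median size of the change was 0.177 against 0.278. Only EIF3E and EIF4EBP1 were called with a log2 fold change of at least 0.5 in size, and no called member reached 1, while 5.44% of all tested genes were called with a change of at least that size. The 44 genes together took 1.24% to 1.3% of all counts in shGFP tumours and 1.45% to 1.46% in shVCAN tumours. With the mitochondrial genome left out of the total, the shares were 1.52% to 1.56% and 1.58% to 1.62%. All fold changes are relative to a scaling (TMM) that centres the bulk of genes: scaling by library size alone shifted the median of all genes to 0.168 and turned the members' split to 20 higher and 4 lower.

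**Figure D1:**
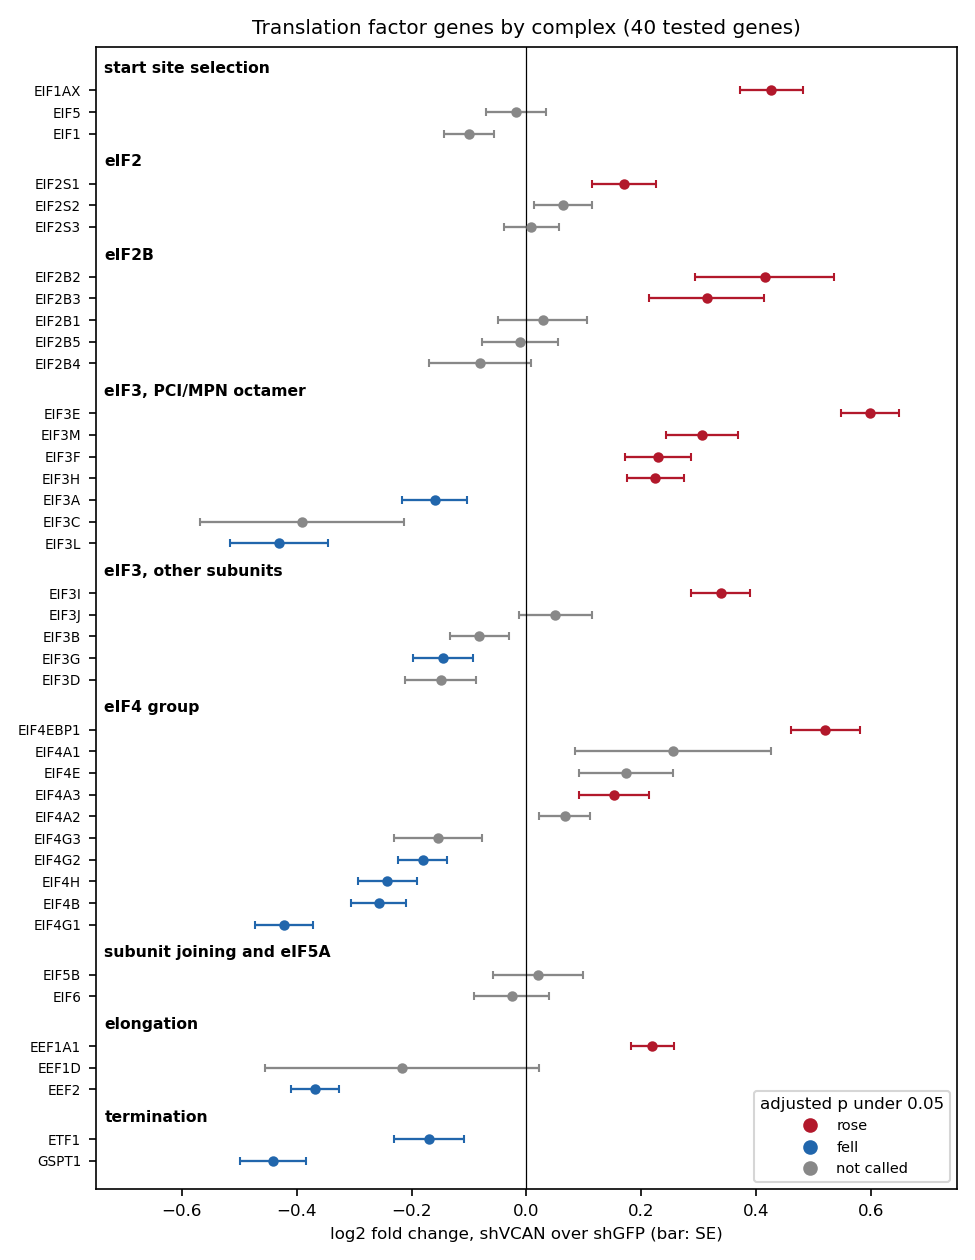
Log2 fold change (horizontal axis, shVCAN over shGFP, with its SE as a bar) of the 40 tested translation factor genes, grouped by complex and coloured by call. EIF3E at 0.60 and GSPT1 at -0.44 mark the ends of the range, and most complexes hold genes on both sides of 0.

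The factors that select the start codon did not move together. EIF1AX, which encodes the scanning factor eIF1A on the X chromosome, rose from 166.7 to 172.8 CPM in shGFP tumours to 212.8 to 237.7 CPM in shVCAN tumours (log2 fold change 0.43, SE 0.0548, adjusted p = 2.05e-07). EIF1, which guards against starts at wrong codons, had a log2 fold change of -0.10 (adjusted p = 0.0682); its levels of 751.5 to 785.7 CPM and 691.8 to 741.7 CPM did not overlap, and without shVCAN tumour 2 it passed the test at -0.12 (adjusted p = 0.0242). EIF5, the protein that makes eIF2 hydrolyse its GTP, had a log2 fold change of -0.02, and its groups overlapped.

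Of the 3 subunits of eIF2, which brings the initiator tRNA, only the alpha subunit gene passed the test. EIF2S1 encodes the subunit that stress kinases phosphorylate to slow initiation. Its level was 191.2, 185.8 and 167.3 CPM in shGFP tumours and 208.3, 199.6 and 204.5 CPM in shVCAN tumours. All 3 shVCAN tumours lay above all shGFP tumours, and the log2 fold change was 0.17 (SE 0.0559, adjusted p = 0.0154). The call ended when shGFP tumour 3 was left out (0.12, adjusted p = 0.142), and likewise for shVCAN tumour 1 (0.15, adjusted p = 0.0764). EIF2S2 and EIF2S3, the beta and gamma subunits, had log2 fold changes of 0.06 and 0.01, with overlapping groups.

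eIF2B recharges eIF2 with GTP, and 2 of its 5 subunit genes rose while 3 did not pass the test. EIF2B2, the beta subunit, had a log2 fold change of 0.41 (SE 0.121, adjusted p = 0.0065) on levels of 14.9 to 22 CPM in shGFP and 24.3 to 26.1 CPM in shVCAN tumours. The call ended without shGFP tumour 3, the lowest of its group (0.28, adjusted p = 0.0714), and other annotated genes share 23.6% of its exonic bases. EIF2B3, the gamma subunit and part of the catalytic side, had a log2 fold change of 0.31 (SE 0.0997, adjusted p = 0.012), lost without shVCAN tumour 1 (0.26, adjusted p = 0.0798). The catalytic epsilon subunit EIF2B5 stood at -0.01, EIF2B1 at 0.03 and EIF2B4 at -0.08, and none of these passed the test.

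eIF3, the largest initiation factor, had log2 fold changes from -0.43 to 0.60, a range only slightly wider than in the eIF4 group (-0.42 to 0.52). Of its 13 subunit genes, 5 rose, 3 fell, 4 did not pass the test and EIF3K was listed at 0. Over all tested genes, 19.2% rose and 21.1% fell. EIF3E had the largest fold change of the set. Its level was 321.0, 289.8 and 291.3 CPM in shGFP tumours and 471.7, 432.8 and 461.6 CPM in shVCAN tumours. Every shVCAN tumour lay more than 100 CPM above every shGFP tumour. The log2 fold change was 0.60 (SE 0.0509, adjusted p = 6.02e-11), an increase of 51.4%. The gene (ENSG00000104408.10) lies at chr8:108201216-108435333 on the minus strand (GENCODE 29, GRCh38), and none of its exonic bases is shared with another annotated gene.

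EIF3E belongs to the octamer of eIF3 that is built on PCI and MPN domains, of which 4 members rose and 2 fell. EIF3F and EIF3H, the MPN subunits, rose with log2 fold changes of 0.23 (SE 0.0574, adjusted p = 0.00179) and 0.22 (SE 0.05, adjusted p = 5.47e-04). EIF3M, a PCI subunit, rose by 0.31 on the log2 scale (SE 0.063, adjusted p = 2.24e-04). EIF3L, another PCI subunit, fell by 0.43 on that scale (SE 0.0854, adjusted p = 1.41e-04), from 47.9 to 49.5 CPM to 33.1 to 40.4 CPM, with 51.8% of its exonic bases shared with other annotated genes. EIF3A, the scaffold of the octamer, fell by 0.16 on that scale (adjusted p = 0.0238; 0.01 when scaled by library size alone), and the call ended without shGFP tumour 3 (adjusted p = 0.156) or shVCAN tumour 1 (adjusted p = 0.0879). EIF3C, its partner in the scaffold, was counted at only 6.64 to 11.6 CPM and had a log2 fold change of -0.39 (SE 0.177, adjusted p = 0.0792). Its near-identical copy EIF3CL had a mean of 0.72 CPM in shGFP and 0.622 CPM in shVCAN tumours, and how reads that fit both copies were counted is not known, so the EIF3C level is uncertain. Without shVCAN tumour 2 EIF3C passed the test at -0.53 (adjusted p = 0.0269).

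Among the subunits outside the octamer, EIF3I, a WD-repeat protein, rose with a log2 fold change of 0.34 (SE 0.0512, adjusted p = 3.17e-06; 0.17 and adjusted p = 0.00978 with a correction for exonic length), from 189.7 to 201.2 CPM to 242 to 246.9 CPM. EIF3G, an RNA-binding subunit, fell by 0.15 on the log2 scale (SE 0.0526, adjusted p = 0.0274; 0.02 when scaled by library size alone), but its groups overlapped, at 263.6 to 291.5 and 244.5 to 265.4 CPM. That call ended when shGFP tumour 1, shGFP tumour 2, shVCAN tumour 1 or shVCAN tumour 3 was left out (adjusted p = 0.101, 0.185, 0.122 and 0.108). EIF3B, which holds EIF3I and EIF3G, and EIF3J, which binds it, had log2 fold changes of -0.08 and 0.05 that did not pass the test. EIF3D, a subunit that can bind the cap, stood at -0.15 (adjusted p = 0.0546) with groups that did not overlap. EIF3B passed the test without shVCAN tumour 2 (-0.13, adjusted p = 0.0355) and EIF3D without shGFP tumour 1 (-0.19, adjusted p = 0.0323). Summed over the 12 counted subunits, eIF3 counts came to 2004.7 ± 15.2 CPM in the control tumours and to 2220.3 ± 16.9 CPM after knockdown (SD, n = 3), given as a description. EIF3E gave the largest part of that rise, from a mean of 300.7 to 455.4 CPM. The sum is not scaled by transcript length, leaves out EIF3K and includes the uncertain EIF3C level, so it is not a measure of the whole complex. The median log2 fold change of the same 12 subunits was -0.02.

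**Figure D2:**
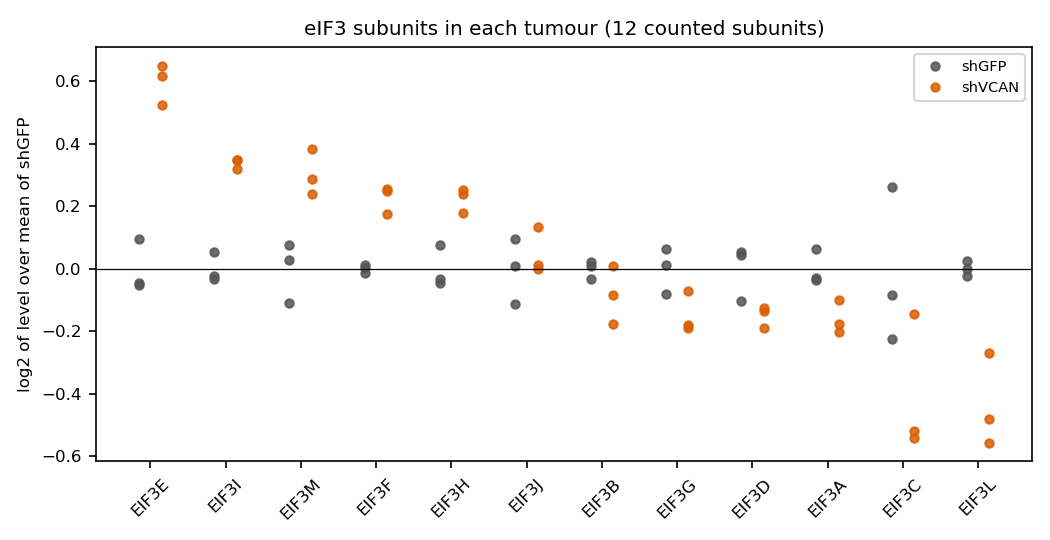
Level of each of the 12 counted eIF3 subunits in every tumour, as the log2 of its CPM over the mean of the shGFP tumours (vertical axis), ordered by fold change. EIF3E, EIF3I, EIF3M, EIF3F and EIF3H have all shVCAN points above all shGFP points, and EIF3D, EIF3A and EIF3L have all of them below.

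The eIF4 group recognises the cap and opens the 5′ end. Of the 10 genes listed under it, 2 rose, 4 fell and 4 did not pass the test. The 2 that rose, EIF4EBP1 and EIF4A3, have other roles, given below. EIF4EBP1 encodes 4E-BP1, which binds the cap-binding protein eIF4E and blocks it when mTOR does not phosphorylate it. Its level was 107.7, 114.4 and 113.7 CPM in shGFP tumours and 169.9, 161.4 and 150.1 CPM in shVCAN tumours. The groups were well separated, with a log2 fold change of 0.52 (SE 0.0599, adjusted p = 2.71e-08; 0.34 with a correction for exonic length). The level of EIF4E was 44.7, 43.5 and 40.5 CPM in shGFP tumours and 48.5, 44.5 and 52.2 CPM in shVCAN tumours, where the lowest shVCAN tumour fell inside the shGFP range. Its log2 fold change was 0.17 (SE 0.0823, adjusted p = 0.0946), and it passed the test without shVCAN tumour 2 (0.23, adjusted p = 0.0261).

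The ratio of EIF4EBP1 to EIF4E counts, which no scaling of libraries changes, was 2.41, 2.63 and 2.81 in shGFP tumours and 3.5, 3.63 and 2.88 in shVCAN tumours. The groups did not overlap, although shVCAN tumour 3 lay close to shGFP tumour 3. The mean log2 ratio differed by 0.35 (exact two-sided permutation test, p = 0.1, the smallest value that 3 against 3 tumours allow). Left-out tumours moved the difference between 0.28 and 0.45.

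EIF4G1, the scaffold that holds eIF4E, eIF4A and the poly(A)-binding protein together, moved the other way. Its level was 511.6, 571.7 and 526.1 CPM in shGFP tumours and 398.0, 424.3 and 378.2 CPM in shVCAN tumours. No shVCAN tumour reached the shGFP range, and the gene (ENSG00000114867.21, chr3:184314495-184335358, plus strand) fell by 0.42 on the log2 scale (SE 0.0508, adjusted p = 6.28e-08). Its relatives showed smaller differences: EIF4G2, which supports cap-independent initiation, fell by 0.18 (SE 0.0425, adjusted p = 9.8e-04), a call that ended when scaled by library size alone (-0.01, adjusted p = 0.835) or corrected for exonic length (-0.08, adjusted p = 0.172). EIF4G3 stood at -0.15 (adjusted p = 0.109) with groups that did not overlap.

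Both helpers of the helicase eIF4A fell, though not when scaled by library size alone (-0.09 for EIF4B and -0.08 for EIF4H, neither passing the test). EIF4B dropped by 0.26 on the log2 scale (SE 0.048, adjusted p = 6.67e-05), from 361.1 to 376.7 CPM to 297 to 318.7 CPM, and EIF4H by 0.24 (SE 0.0516, adjusted p = 3.33e-04). For the helicases themselves the counts were uneven. EIF4A2 was at 536.3, 506.1 and 524.5 CPM in shGFP and 539.1, 541.3 and 560.5 CPM in shVCAN tumours, just above the shGFP range, with a log2 fold change of 0.07 (SE 0.0448, adjusted p = 0.251). EIF4A1 was counted at only 7.99, 7.62 and 8.31 CPM and 7.69, 11.2 and 9.63 CPM, with 48.6% of its exonic bases shared with other annotated genes, among them the readthrough gene SENP3-EIF4A1. Its log2 fold change was 0.26 (SE 0.171, adjusted p = 0.248). The difference in the log2 ratio of EIF4A1 to EIF4A2 was 0.17 (exact two-sided permutation test, p = 0.4), and 0.04 without shVCAN tumour 2, and the ratios of the groups overlapped. EIF4A3, the related helicase of the exon junction complex, rose with a log2 fold change of 0.15 (adjusted p = 0.0432), a call that ended without shGFP tumour 2 or 3 or shVCAN tumour 1 or 3 (adjusted p = 0.0881, 0.161, 0.123 and 0.0795).

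**Figure D3:**
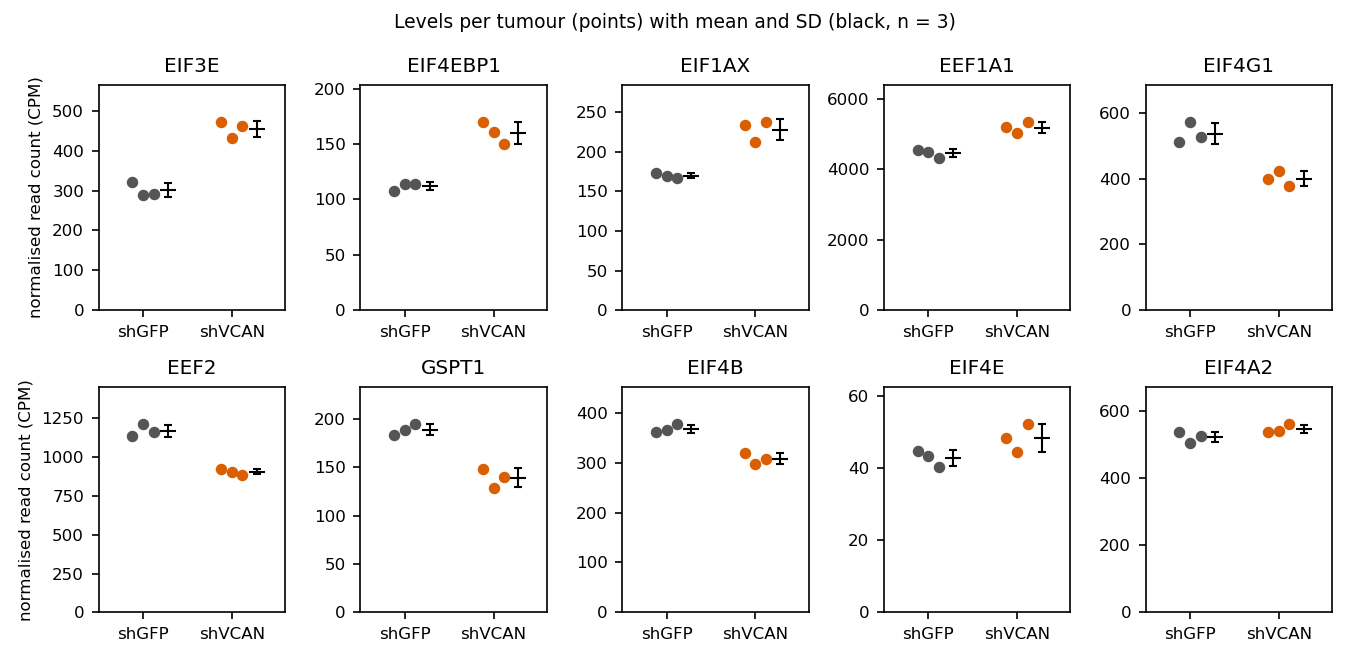
Normalised read count (CPM, vertical axis from 0) of 10 genes in each of the 6 tumours, with the group mean and SD in black (n = 3). The groups are apart for every gene shown except EIF4E, and EIF4A2 differs by less than the others, with a log2 fold change of 0.07.

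Neither counted factor of subunit joining passed the test. EIF5B, the GTPase that joins the large subunit, had a log2 fold change of 0.02, with shVCAN tumour 3 at 157.5 CPM and the other tumours of that group at 113.7 and 120.9 CPM. EIF6, which keeps free large subunits from joining, stood at -0.03.

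The main elongation factors moved in opposite directions. EEF1A1, the tRNA carrier and the most highly expressed gene of the set per length, was at 4533.9, 4486.7 and 4321.0 CPM in shGFP tumours and 5182.7, 5017.5 and 5332.5 CPM in shVCAN tumours. All shVCAN tumours were higher, and the gene (ENSG00000156508.18, chr6:73515750-73523797, minus strand) rose with a log2 fold change of 0.22 (SE 0.0377, adjusted p = 2.14e-05). EEF2, the translocase, was at 1132.3, 1209.4 and 1162.3 CPM in shGFP tumours and 921.0, 906.2 and 886.8 CPM in shVCAN tumours. Here all shVCAN tumours were lower, and the gene (ENSG00000167658.16, chr19:3976056-3985469, minus strand) fell by 0.37 on the log2 scale (SE 0.0423, adjusted p = 2.61e-08). The ratio of EEF1A1 to EEF2 counts was 4, 3.71 and 3.72 in shGFP tumours and 5.63, 5.54 and 6.01 in shVCAN tumours, a comparison chosen after the values were seen. The mean log2 ratio differed by 0.59 (exact two-sided permutation test, p = 0.1, the smallest possible). That p-value adds nothing: with EEF1A1 higher and EEF2 lower in every shVCAN tumour, the ratio had to separate the groups.

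The release factors both fell, but ETF1 did not pass the test when scaled by library size alone (0.00) or by upper quartile factors (-0.13, adjusted p = 0.0858). GSPT1, the GTPase eRF3a, was at 183.6 to 194.4 CPM in shGFP tumours and 129.1 to 148.4 CPM in shVCAN tumours, a drop that put it at the lower end of the set (log2 fold change -0.44, SE 0.0579, adjusted p = 3.04e-07). ETF1, the stop codon reader eRF1, fell by 0.17 on the log2 scale (SE 0.0608, adjusted p = 0.0252), with 129.7 to 138.6 CPM and 115.1 to 129 CPM. The ETF1 call ended when shGFP tumour 1, shGFP tumour 2, shVCAN tumour 1 or shVCAN tumour 3 was left out (adjusted p = 0.128, 0.0886, 0.131 and 0.108).

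On the scale of CPM per kb of the median coding transcript, EEF1A1 stood at 1290.2 in shGFP and 1502.1 in shVCAN tumours. EIF1 followed in both groups, at 491.2 and 458.3. Next in shGFP tumours came EEF2 at 369.1, EIF4G2 at 282.6 and EIF4A2 at 274.3, and in shVCAN tumours EIF3E at 317.7, EIF4A2 at 287.3 and EEF2 at 285.9. The last pair differed by less than the spread between tumours. The eIF2B genes were far lower, between 4.33 and 32.7 in shGFP tumours. EIF4EBP1 at 109.7 and 157.3 stood above EIF4E at 38.5 and 43.4 on this scale, which compares RNA and not protein.

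The 4 genes listed at 0 were EIF3K, EIF5A, EEF1B2 and EEF1G, all of them parts of factors that dividing cells use. A count of 0 allows up to 3 counts, or 0.225 to 0.267 CPM in these libraries, for counting error only. In the same table LDHA, POLR2A, RPL7A and RPS25 were also at 0, and 3407 of 19910 protein-coding genes (17.1%) held no count in any library, so a 0 is not read as missing expression. EEF1G shares 99.9% of its exonic bases with another annotated gene and EEF1B2 17.4%, but EIF3K shares none. EEF1D, the remaining eEF1 exchange subunit, was counted at 3.21 to 4.46 CPM with 34% of its exonic bases shared, so the eEF1B complex could not be followed in these data.

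Longer transcripts tended to have lower fold changes in these libraries. Across 12058 genes with at least 4 CPM, the Spearman correlation of the log2 fold change with exonic length was -0.271, and across the 40 set members it was -0.197. With the length of the median coding transcript the members' value was -0.309. These are descriptions of genes that share libraries. The median transcript length was 1850 bases for the 12 members that rose, 2877 for the 10 that fell and 1953 for the 18 not called. The ranges overlapped widely, at 1020 to 4314 bases for those that rose and 1103 to 5570 for those that fell. With a correction for exonic length, 14 members rose and 10 fell: EIF3A (-0.07), EIF4G2 (-0.08) and ETF1 (-0.15, adjusted p = 0.0515) lost the call, and EIF1, EIF3D, EIF4A2, EIF4E and EIF6 gained one. The other 19 called members kept theirs, EIF3I at 0.17 and EIF4EBP1 at 0.34.

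**Figure D4:**
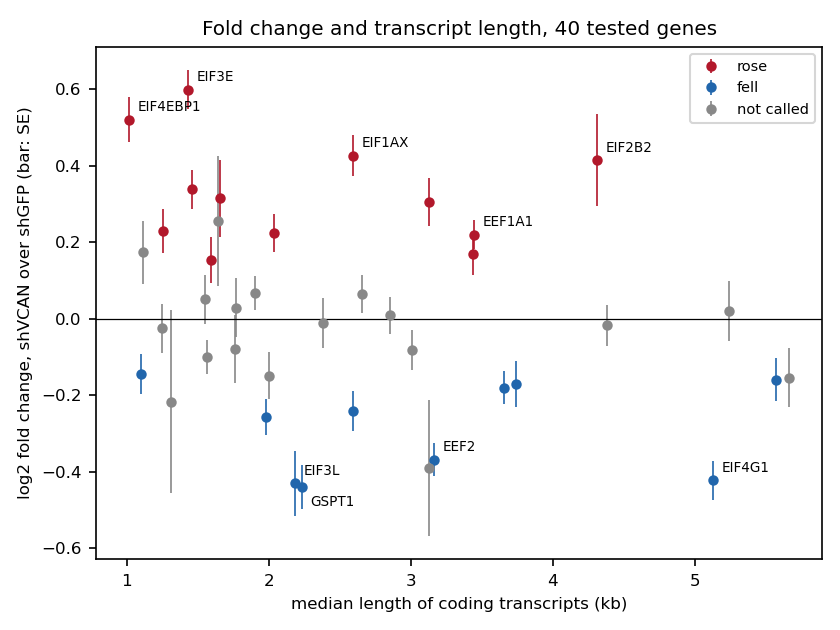
Log2 fold change with its SE (vertical axis) against the median length of coding transcripts in kb (horizontal axis) for the 40 tested genes, coloured by call. The short EIF4EBP1 and EIF3E are highest and the long EIF4G1 is among the lowest, while EIF2B2 and EIF3G lie against that order.

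A wider list of 66 translation genes, made of regulators, paralogs, recycling factors and mitochondrial factors, also ran both ways. Of 62 tested genes, 16 rose, 15 fell and 31 did not pass the test, beside 19.2% rising and 21.1% falling over all tested genes. Those shares also stand beside the counts of the smaller groups given below, which hold few genes each. Among the 9 kinases and phosphatase subunits of eIF2, 3 rose and 5 fell. PPP1R15A, the stress-induced subunit that directs phosphatase to eIF2, fell by 0.84 on the log2 scale (SE 0.0807, adjusted p = 8.8e-10), from 69 ± 3.24 CPM to 38.6 ± 3.96 CPM (SD, n = 3). PPP1R15B, its constitutive relative, fell by 0.44 (SE 0.0648), while the catalytic subunits PPP1CB and PPP1CC each rose by 0.41. EIF2AK3, the kinase PERK of the endoplasmic reticulum, fell by 0.38 (SE 0.104, adjusted p = 0.00394), a call that ended when scaled by library size alone (-0.21, adjusted p = 0.0965). The other kinases that fell, named after their values were seen, were EIF2AK1, the heme-regulated kinase HRI, by 0.42 (SE 0.0646, adjusted p = 4.51e-06), and EIF2AK2, the double-stranded RNA sensor PKR, by 0.21 (SE 0.0726, adjusted p = 0.0205). EIF2AK4, the amino acid sensor GCN2, did not pass the test at 0.00 (adjusted p = 0.974).

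Of 17 poly(A)-binding and cap regulators, 2 rose and 7 fell, beside 19.2% and 21.1% of all tested genes. PAIP2, an inhibitor of the poly(A)-binding protein, rose with a log2 fold change of 0.59 (SE 0.0656, adjusted p = 1.58e-08), while PABPC1, the protein it inhibits, fell by 0.34 (SE 0.0415, adjusted p = 9.98e-08), from 1084.1 ± 22 CPM to 858.6 ± 11 CPM (SD, n = 3). LARP1, the TOP-binding protein, fell by 0.50 (SE 0.0616, adjusted p = 1.05e-07), and MKNK2, a kinase of eIF4E, fell by 0.61 (SE 0.0747, adjusted p = 7.58e-08). Of 13 RNAs listed for a TOP tract in earlier descriptions, 6 rose, 3 fell, 2 did not pass the test and 2 were at 0. Over all tested genes 19.2% rose and 21.1% fell, and abundant genes were called more often. This hand-written list holds no ribosomal protein genes and not all genes with a TOP start above. Its tested RNAs did not all move in 1 direction. Most of the 13 are genes already reported above: the set members EEF1A1, EEF1B2, EEF1D, EEF1G, EEF2, EIF3E, EIF3F, EIF3H and EIF4B, and PABPC1. The others were TPT1 (log2 fold change 0.28) and NAP1L1 (0.49), which rose, and RACK1 (0.05), which did not pass the test.

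Among paralogs of the set, EEF1A2, the form of eEF1A known from muscle and neurons, rose with a log2 fold change of 0.45 (SE 0.068, adjusted p = 3.26e-06). Of the 4 muscle markers, 3 fell, but only DES had groups that did not overlap. Whether host muscle adds to the EEF1A2 counts was not tested. EIF1B at 0.15, EIF5A2 at 0.25 and GSPT2 at -0.03 did not pass the test, and EIF3CL had too few counts. EEF1E1, a scaffold subunit of the tRNA synthetase complex, had the largest fold change among the genes named from this list, 0.96 (SE 0.104, adjusted p = 8.8e-09), from 18.6 ± 1.01 CPM to 36 ± 3.15 CPM (SD, n = 3). Of 9 mitochondrial translation factors, 3 rose and 6 did not pass the test, beside 19.2% of all tested genes that rose. The share of mitochondrial messenger RNAs was lower in the shVCAN tumours. The link between those measurements was not tested.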

How the data were processed

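Per the labels' protocols, total RNA of 6 xenograft tumours was sequenced with paired reads. The deposited values are raw whole-number counts under Ensembl gene identifiers, with no scaling by the authors. Of tools and builds, the submitters' processing notes list Trim Galore, STAR, DESeq2 and hg38. Not given in the sources used here are the counter, its annotation, its strand setting and whether mouse reads were removed, so some counts may be of mouse RNA.

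Of 67071 rows, 45 second copies of pseudoautosomal genes (0 counts) were left out. The test was the quasi-likelihood one of edgeR 4.0.16 (R 4.3.3; TMM scaling, filterByExpr, group as the only term), with Benjamini-Hochberg adjustment over 16254 genes and calls at adjusted p under 0.05. The code was tested on simulated data. The SE is the size of the log2 fold change over the square root of F. CPM uses TMM library sizes, except in the limit given for a count of 0. Positions and lengths are from GENCODE 29 and start sites from RefSeq; transcript length is the median over coding transcripts. Alternatives used other scalings and filters, limma 3.58.1, DESeq2 1.42.0, a replicate block, a length offset and left-out tumours.

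Members and lists were chosen with earlier results of these data known. All members are named, with values per tumour for called members of at least 0.5 in size and for preset factors. Of the wider list the 10 called genes of smallest p are named, with preset paralogs and the kinases EIF2AK3 and EIF2AK4. EIF2AK1, EIF2AK2, other ranges and the plotted EIF1AX, GSPT1 and EIF4B, were added after the values were seen. Replicate libraries differed by more than counting error (chi-square per gene 3.22 to 5.9 within groups).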

Additional observations from a re-analysis of the deposited data

How the results depend on the processing

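Under 18 alternatives, 12 of the 22 called members kept their call in every one: EIF1AX, EIF3E, EIF3F, EIF3H, EIF3M, EIF3I, EIF3L, EIF4G1, EIF4EBP1, EEF1A1, EEF2 and GSPT1. The other 10 lost it in at least 1, and 13 members not called passed the test in at least 1. The largest shift came from scaling by library size alone, which gave 20 members higher and 4 lower, 27 and 6 of the wider list, 5228 and 1890 of all tested genes, and a median log2 fold change of the members of 0.164. It turned the sign of 10 members from negative to positive: EIF1 (0.07), EIF5 (0.15), EIF2B4 (0.09), EIF2B5 (0.15), EIF3A (0.01), EIF3B (0.09), EIF3D (0.02), EIF3G (0.02), EIF4G3 (0.01) and EIF6 (0.14). Of the other named genes it turned EIF2AK4 (0.16) and GSPT2. It ended the calls of EIF3A, EIF3G, EIF4B, EIF4G2, EIF4H, ETF1 and EIF2AK3. That scaling moves all genes by about the same amount, 0.168 at the median. Upper quartile scaling gave a median of 0.038 and turned the sign of EIF5, EIF2B5 and EIF6; the length offset turned 7 members, none of them called. At adjusted p under 0.01, 10 genes of the wider list rose. Leaving out each tumour gave medians between -0.02 and 0.032, with the highest without shGFP tumour 2. With the replicate number as a block, 12 members rose and 10 fell. Same-numbered tumours did not deviate together (correlations -0.0271 to 0.0176, beside -0.0365 to 0.0208 for other pairs). Correlations this small do not settle whether tumours were handled in pairs, on which the labels are silent. Depth limits EIF3C, EIF4A1, EEF1D and VCAN, counted at about 10 CPM or less.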

Other observations

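The table also holds 149 rows for numbered pseudogenes of 24 of the 44 genes, of which 19 had enough counts to be tested. Of these, 10 fell, beside 21.1% of all tested genes, and 18 had a log2 fold change under 0. The exception, EEF1B2P3, stood at 0.14 (edgeR adjusted p = 0.841). The falls were concentrated on EEF1A1: 8 of its 10 tested pseudogene rows fell and all 10 were under 0. EEF1A1 itself rose with 0.22. Copies of the same gene may share reads, so these rows are not separate observations. The largest, EEF1A1P5, had 3463, 2869 and 2676 counts in shGFP tumours and 2066, 2314 and 2042 in shVCAN tumours, and fell by 0.79 on the log2 scale (SE 0.059, edgeR adjusted p = 3.76e-12). EEF1A1P16 fell by 0.61 (SE 0.0805, adjusted p = 3.23e-07). With these rows added to the gene, EEF1A1 still rose, with a log2 fold change of 0.16 (adjusted p = 8.97e-04). How reads were divided between the gene and its copies is not known, and the source of the pseudogene counts was not tested.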
